A study of Homo sapiens with 10 samples.

Results

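NK-92 cells given the antibody PPMX-T003 for 24 h were compared with untreated NK-92 cells over the whole gene table, with surface receptors, transcription factors and secreted factors described by class. The comparison used 4 of the 10 libraries of the series, taken by their treatment labels: 2 libraries of cells given 10 µg/mL of PPMX-T003 (called T003) for 24 h, and 2 libraries of cells given nothing, labelled 0 h. Of 54628 genes listed, 20125 passed the filter on low counts and were tested. Cells given T003 for 6 h (2 libraries) and cells given 500 µM deferoxamine (DFO), a small iron chelator, for 24 h (2 libraries) are shown beside these where timing or the agent bears on a gene. Every group was the same line in the same serum-containing medium. The untreated cells were taken at 0 h, and neither untreated cells kept for 24 h nor cells given a non-binding antibody were analysed here, so the antibody and 24 h in culture cannot be told apart. No label says that the 2 libraries of a group came from separate cultures, so each p-value reflects the spread between these particular libraries, and that spread may be technical.

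NK-92 is an established human cell line that grew out of a natural killer (NK) cell lymphoma and depends on interleukin-2. NK cells kill other cells with perforin and granzymes released from granules, and they secrete interferon gamma and chemokines that call in other leukocytes. PPMX-T003 binds transferrin receptor 1, the product of TFRC, through which dividing cells take in iron carried by transferrin, and TFRC messenger RNA is protected from decay by iron regulatory proteins when iron in the cell is low.

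Library totals were 143575614 and 127973693 estimated counts for untreated cells and 122535710 and 125710293 for T003 at 24 h. The first principal component (27.7% of the variance over genes of at least 1 CPM) put all 4 libraries of 24 h, both agents, at 11.1 to 15.2 and the other 6 libraries at -11.7 to -6.99. Of 16 NK cell markers, 13 had a mean of at least 1 CPM (TMM-scaled CPM, counts scaled to library size), and their sum was 3408 and 3354 CPM in untreated cells and 3782 and 3749 CPM with T003; 5 of the 16 were called higher and 1 lower. Among defining markers, KLRB1 was at or near 0 and FCGR3A was below 0.5 CPM in all 4 libraries. T-cell markers CD3E (434 to 441 CPM) and CD6 (15.3 to 19.2 CPM) were present while CD4, CD5, CD8B and CD3G were listed at 0, and marker sums of B cells, monocytes, red cells and epithelial cells were at most 3.66 CPM in any of the 4 libraries.

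T003 for 24 h was accompanied by many small changes and few large ones. In all, 2524 of 20125 genes were called (adjusted p under 0.05), a background of 12.5%, of which 1429 were higher (7.1%) and 1095 lower (5.44%). Among 12723 protein-coding genes the share was 18.2% (2315 genes). The median change of a called gene was 1.15-fold in either direction, and the median over all tested genes was -0.00688 on the log2 scale. The count fell by more than 1.5 times when single libraries were left out, to 1084 without untreated replicate 2, 1312 and 1373 without T003 24 h replicates 1 and 2, and 1675 without untreated replicate 1. Genes called in the same direction in every one of 13 alternative fits (each library left out in turn, the 4 libraries alone, a replicate block, and DESeq2) are termed stable calls here. There were 857 of them (4.26%, and 6.41% of protein-coding genes), 523 higher and 334 lower. The genes described below as risen or fallen are stable calls unless stated. The largest rises and falls were named only if their groups did not overlap, so their lack of overlap is no further support. How many of all tested genes lacked overlap is not reported here.

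**Figure D1:**
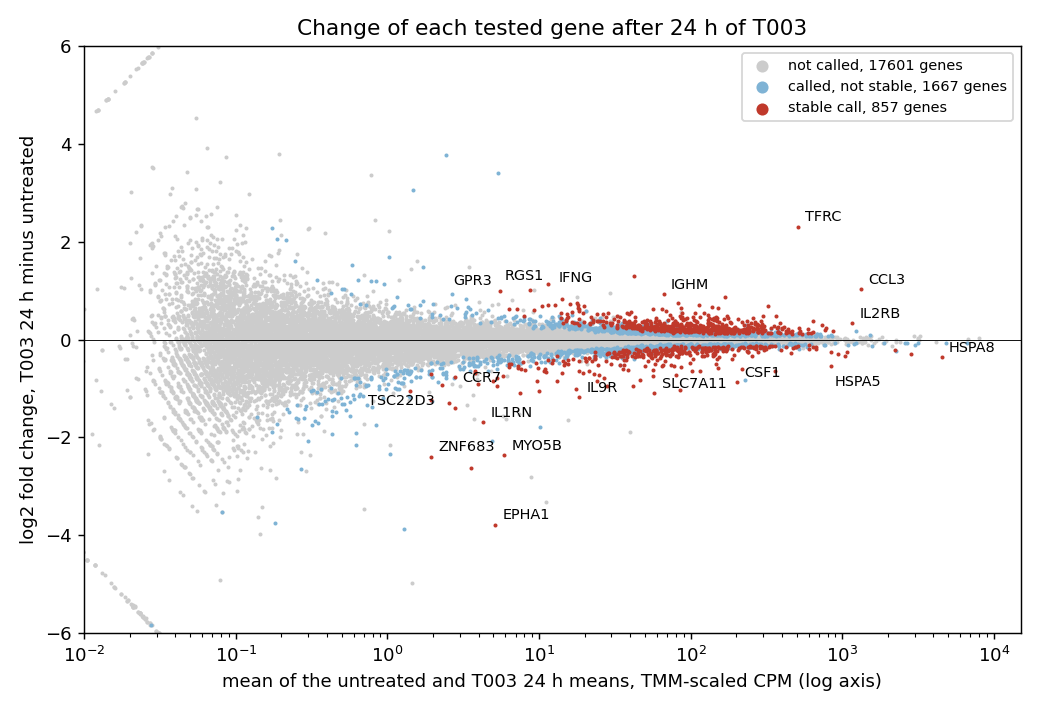
Each point is one tested gene, placed by the mean of the untreated and T003 24 h group means (TMM-scaled CPM, log axis) and by its log2 fold change, T003 24 h minus untreated. Stable calls (857, red) lie mostly within 1 log2 unit of 0, with TFRC far above and EPHA1 far below. 163 genes lie outside the plotted axes.

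Changes of 2-fold or more were called for 119 genes (0.591%), 28 higher and 91 lower, and 83 of these 119 had a mean under 1 CPM. Only 21 of the 119 were stable calls, 6 higher and 15 lower. The 6 rises were TFRC, CCL3L3, IFNG, CCL3, RGS1 and GPR3. Without untreated replicate 2, 55 genes were called at this size. The steepest unstable values belonged to symbols that share sequence with a neighbour, such as the readthrough names ZFP91-CNTF (-15.00) and TVP23C-CDRT4 (3.41), both singled out after their values were seen, and they are not described further. Long noncoding RNAs gave 90 calls among 3003 tested (3%, beside 12.5% of all tested genes). Of these, 22 were higher (0.733%, beside 7.1%) and 68 lower (2.26%, beside 5.44%), with 4 and 3 of them stable.

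The target of the antibody was read first. TFRC (chromosome 3, 196049284 to 196082090, minus strand, hg38) stood at 177 and 165 CPM in untreated cells, 437 and 419 CPM after 6 h of T003, and 845 and 847 CPM after 24 h. The groups did not overlap, and the 24 h level was 4.95-fold the untreated one (log2 2.31, SE 0.036, adjusted p = 5.00e-11). DFO at 24 h gave 834 and 833 CPM, and the difference between the agents was 0.02 (adjusted p = 0.875). TFR2, which encodes a related transferrin receptor, was at 20.2 and 17.6 CPM untreated and 21 and 20.2 CPM with T003 (log2 0.12, adjusted p = 0.328).

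Surface receptors changed in both directions, with the steepest falls in EPHA1, TSPAN18, IL9R and CCR7. Of 428 tested genes in the class (855 listed), 81 were called (18.9%), beside 18.2% of all protein-coding genes: 53 higher and 28 lower, of which 33 and 12 were stable. Of the called ones 65.4% were higher, beside 58.8% of called protein-coding genes. The median log2 change over the 428 was -0.02. Without untreated replicate 2 the count was 49. The class lists were built from gene symbol families, with earlier results of these data known.

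Among G protein-coupled receptors and their regulators, RGS1 and GPR3 had the largest stable rises. RGS1 (chromosome 1, 192575773 to 192580024, plus strand) encodes a protein that shortens signalling from chemokine receptors by speeding GTP hydrolysis on the G protein. It was at 6.27 and 5.30 CPM in untreated cells and 11.4 and 11.8 CPM with T003 at 24 h (log2 1.0, SE 0.119, adjusted p = 0.000382). GPR3 (chromosome 1, 27392622 to 27395814, plus strand), a receptor that raises cyclic AMP without a ligand, was at 4.60 and 2.77 CPM untreated and 7.40 and 7.36 CPM with T003 (log2 1.0, SE 0.190, adjusted p = 0.0058). For both genes every T003 24 h library lay above every untreated library, although the untreated libraries of GPR3 differed from each other more than those of RGS1. S1PR1, the receptor by which lymphocytes sense sphingosine 1-phosphate and leave tissues, rose from 22.1 and 21.8 to 28.8 and 28.4 CPM, a 1.30-fold change. PTGER2, a prostaglandin E2 receptor, rose 1.22-fold (log2 0.28, adjusted p = 0.000234). S1PR5 had no count in the 4 libraries and was not tested. Of 96 other G protein-coupled receptors, 10 were called higher and 6 lower (16.7% called, beside 18.2% of protein-coding genes). Of these, 4 higher and none lower were stable. The fourth was ADGRE5 (log2 0.21), named after its value was seen.

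Promoters of 4 named genes, picked after the matches were seen from 10 that hold it, are printed as examples with the cyclic AMP response element core, TGACGT, which was in 15.8% of the promoters of stable rises beside 10.4% of all promoters. Each is the 250 bases before the RefSeq start (GRCh38.p14), 5′ to 3′ on the gene's strand, with capitals marking TGACGT on either strand and, in GZMB, also the AP-1 motif TGANTCA. RGS1 and GPR3 rose, SKIL fell and GZMB rose. The core was also found before ZNF330, NR6A1, ORAI2 and INSIG1, which rose, and MAPK8 and HSPA5, which fell, and HSPA5 holds the AP-1 motif as well.
RGS1, chr1:192575523-192575772, plus strand: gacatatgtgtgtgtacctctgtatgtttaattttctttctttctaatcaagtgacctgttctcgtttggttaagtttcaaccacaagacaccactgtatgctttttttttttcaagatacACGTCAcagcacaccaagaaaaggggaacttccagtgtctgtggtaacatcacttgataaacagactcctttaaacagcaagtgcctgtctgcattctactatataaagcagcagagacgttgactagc
GPR3, chr1:27392372-27392621, plus strand: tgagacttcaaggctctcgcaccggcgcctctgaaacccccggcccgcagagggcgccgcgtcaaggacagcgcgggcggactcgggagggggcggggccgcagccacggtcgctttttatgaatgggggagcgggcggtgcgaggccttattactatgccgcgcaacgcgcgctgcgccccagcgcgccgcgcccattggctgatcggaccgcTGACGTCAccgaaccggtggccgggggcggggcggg
SKIL, chr3:170357465-170357714, plus strand: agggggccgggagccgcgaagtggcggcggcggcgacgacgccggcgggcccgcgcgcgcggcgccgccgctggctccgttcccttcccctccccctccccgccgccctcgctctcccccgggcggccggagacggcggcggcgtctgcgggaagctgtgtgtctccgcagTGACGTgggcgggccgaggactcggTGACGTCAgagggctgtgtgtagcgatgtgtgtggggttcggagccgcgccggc
GZMB, chr14:24634191-24634440, minus strand: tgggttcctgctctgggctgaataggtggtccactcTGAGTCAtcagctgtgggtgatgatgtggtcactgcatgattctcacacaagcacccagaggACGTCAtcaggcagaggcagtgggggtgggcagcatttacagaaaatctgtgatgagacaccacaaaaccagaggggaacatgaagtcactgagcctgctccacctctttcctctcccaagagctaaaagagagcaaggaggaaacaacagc
The RGS1 match begins 129 bases before the start. GPR3 has a single palindrome read on both strands, at 36 and 34 bases. SKIL has a match at 79 bases and a palindrome at 54 and 52, and GZMB has its AP-1 match at 214 bases and the core at 152.
Of 20125 tested genes, 9322 had a single promoter entry in the RefSeq table, and genes with more entries were left out. Not every named gene was searched, so others may hold the core. Of these, 284 belonged to stable rises and 182 to stable falls, and 12.6% of the 182 held TGACGT. The ETS core CCGGAA was in 24.9% of all, 31.7% of rises and 22.0% of falls, and the E-box CACGTG in 8.64%, 12% and 7.69%. The AP-1 motif was in 4.55%, 2.46% and 4.40%. Both strands were searched, no test was made, and a match is a description of the sequence only.

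Chemokine receptors split. CCR7, which guides lymphocytes to lymph nodes, fell from 10.7 and 9.67 CPM to 4.22 and 5.32 CPM (log2 -1.10, SE 0.108, adjusted p = 0.000107), a level 2.14-fold lower with no overlap between groups. CCR1, a receptor of CCL3 and related inflammatory chemokines, rose 1.22-fold, from 108 and 99.8 to 129 and 126 CPM. CXCR3 was called lower (log2 -0.18, adjusted p = 0.0152), but the call ended without T003 24 h replicate 2 (adjusted p = 0.135) or untreated replicate 2 (adjusted p = 0.12). CXCR4 was at 68.3 and 75.2 CPM untreated and 64.8 and 66.0 CPM with T003 (adjusted p = 0.067), and passed the threshold without untreated replicate 1 (0.0103), without a filter (0.0455), with the 1 CPM filter (0.0361) and with DESeq2 (0.0263). Of 17 tested chemokine receptors, 2 were called higher and 2 lower (23.5% called, beside 18.2% of protein-coding genes).

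Of 34 tested cytokine receptor chains, 6 were called (17.6%, close to the 18.2% of protein-coding genes), 5 higher and 1 lower, all stable. IL2RA, the chain that gives the interleukin-2 receptor its high affinity, rose from 16.1 and 15.8 to 22.4 and 24.3 CPM (log2 0.55, SE 0.072, adjusted p = 0.000661). IL2RB, the signalling beta chain, rose from 1052 and 1015 to 1316 and 1294 CPM (log2 0.34, SE 0.027, adjusted p = 3.35e-05). The common gamma chain IL2RG was at 277 and 278 CPM untreated and 266 and 268 CPM with T003 (log2 -0.06, adjusted p = 0.11). IL9R, the receptor of interleukin-9, fell from 23.4 and 27.8 to 10.6 and 12.1 CPM (log2 -1.18, SE 0.087, adjusted p = 1.98e-05), so every T003 library had less than every untreated one. The other 3 rises, named after their values were seen, were IL6ST (log2 0.31), IFNAR2 (0.23) and IL12RB2 (0.20).

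NK and leukocyte receptors gave 15 calls higher and 2 lower among 92 tested genes (18.5%, close to the 18.2% of protein-coding genes). Of these calls 11 and 1 were stable, and the median log2 change over the 92 was 0.03. CD69, an early activation antigen of lymphocytes, rose from 5.72 and 5.62 to 8.51 and 8.86 CPM (log2 0.62, SE 0.097, adjusted p = 0.002). CD28, the costimulatory receptor best known from T cells, rose from 98.7 and 95.7 to 133 and 135.3 CPM (log2 0.46, SE 0.032, adjusted p = 1.24e-05). KIR3DX1, a transcribed relative of the killer cell immunoglobulin-like receptors that is annotated as a pseudogene, rose from 66.6 and 56.6 to 99.9 and 106 CPM. None of these genes had overlapping groups. The other 8 stable rises, outside the naming rule, were LILRB1 (log2 0.41), SLAMF7 (0.31), CD160 (0.27), KIR2DL4 (0.27), ICOS (0.23), SIRPG (0.18), CD48 (0.15) and NCR3 (0.14). The stable fall was KLRD1 (-0.23), which encodes CD94, the partner chain of NKG2 receptors. Reads of KIR and LILR family members can be split among near copies, so these values are uncertain.

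A receptor tyrosine kinase gene had the steepest fall among the stable calls. EPHA1 (chromosome 7, 143391129 to 143408856, minus strand), an ephrin receptor, was at 8.45 and 10.8 CPM in untreated cells, 14.3 and 14.7 CPM after 6 h of T003, and 0.634 and 0.761 CPM after 24 h. That is a level 13.8-fold lower than in untreated cells (log2 -3.78, SE 0.180, adjusted p = 2.05e-06). EPHA1 overlaps EPHA1-AS1, whose reads cannot be told apart from its own unless counting used strand. PDGFRB, a receptor of platelet-derived growth factor, fell 1.24-fold from 106 and 112 to 89.3 and 86.6 CPM. RYK, a WNT-binding receptor without kinase activity, rose 1.27-fold. Of 28 tested genes, 1 was called higher and 4 lower (17.9% called, close to the 18.2% of protein-coding genes).

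Adhesion molecules, tetraspanins and guidance receptors also held clear falls. SELPLG, the ligand of P-selectin that lets leukocytes roll on vessel walls, fell from 99.1 and 108 to 71.3 and 69.4 CPM (log2 -0.56, SE 0.044, adjusted p = 2.82e-05). NCAM2 fell 1.73-fold from 6.34 and 7.12 to 4.35 and 3.43 CPM, and ITGA1, the collagen-binding integrin alpha chain, fell 1.46-fold. ITGA1 overlaps PELO. The tetraspanins TSPAN18 and TSPAN14 fell 2.45-fold and 1.39-fold, TSPAN18 from 3.54 and 3.72 to 1.45 and 1.51 CPM. TSPAN18 overlaps TP53I11. Of 65 adhesion genes tested, 10 were called higher and 5 lower (23.1% called, beside 18.2% of protein-coding genes). Of the called ones 66.7% were higher, beside 58.8% of called protein-coding genes. Stable rises there, named after their values were seen, were ITGA6 (log2 0.54), ICAM1 (0.44), ITGB7 (0.24) and ITGAL (0.23). TGFBR3, a coreceptor of TGF-beta, rose 1.37-fold, NOTCH1 rose 1.23-fold, and the semaphorin receptor PLXNC1 fell 1.35-fold. TNFRSF1B and TNFRSF8, receptors of tumour necrosis factor and of CD30 ligand, rose 1.18-fold and 1.17-fold.

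**Figure D2:**
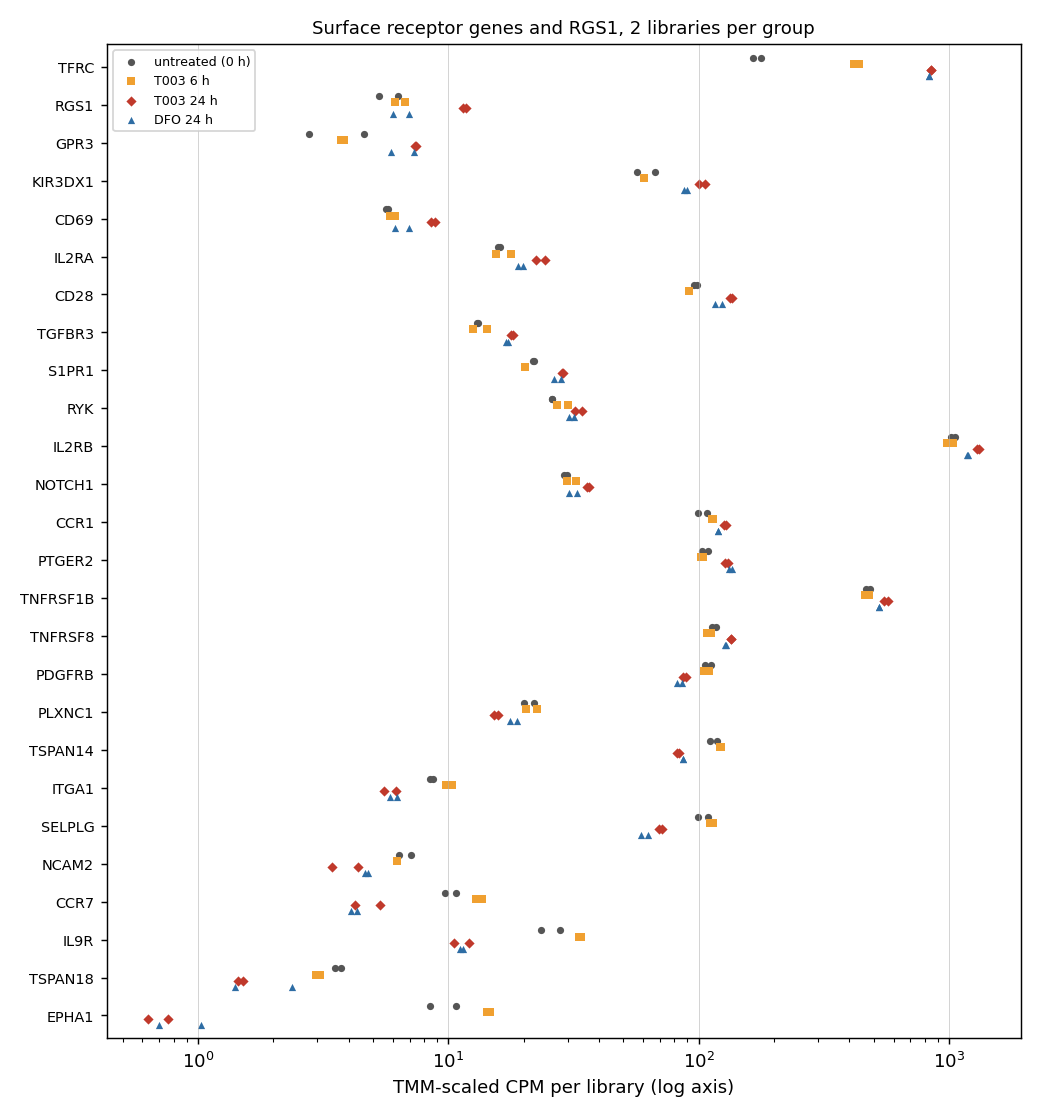
TMM-scaled CPM (log axis) of surface receptor genes and RGS1 in each library, 2 points a group for untreated, T003 6 h, T003 24 h and DFO 24 h, ordered by the T003 24 h change. T003 24 h libraries of EPHA1 sit at 0.634 and 0.761 CPM, and those of RGS1 at 11.4 and 11.8, above all other RGS1 points.

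**Figure D3:**
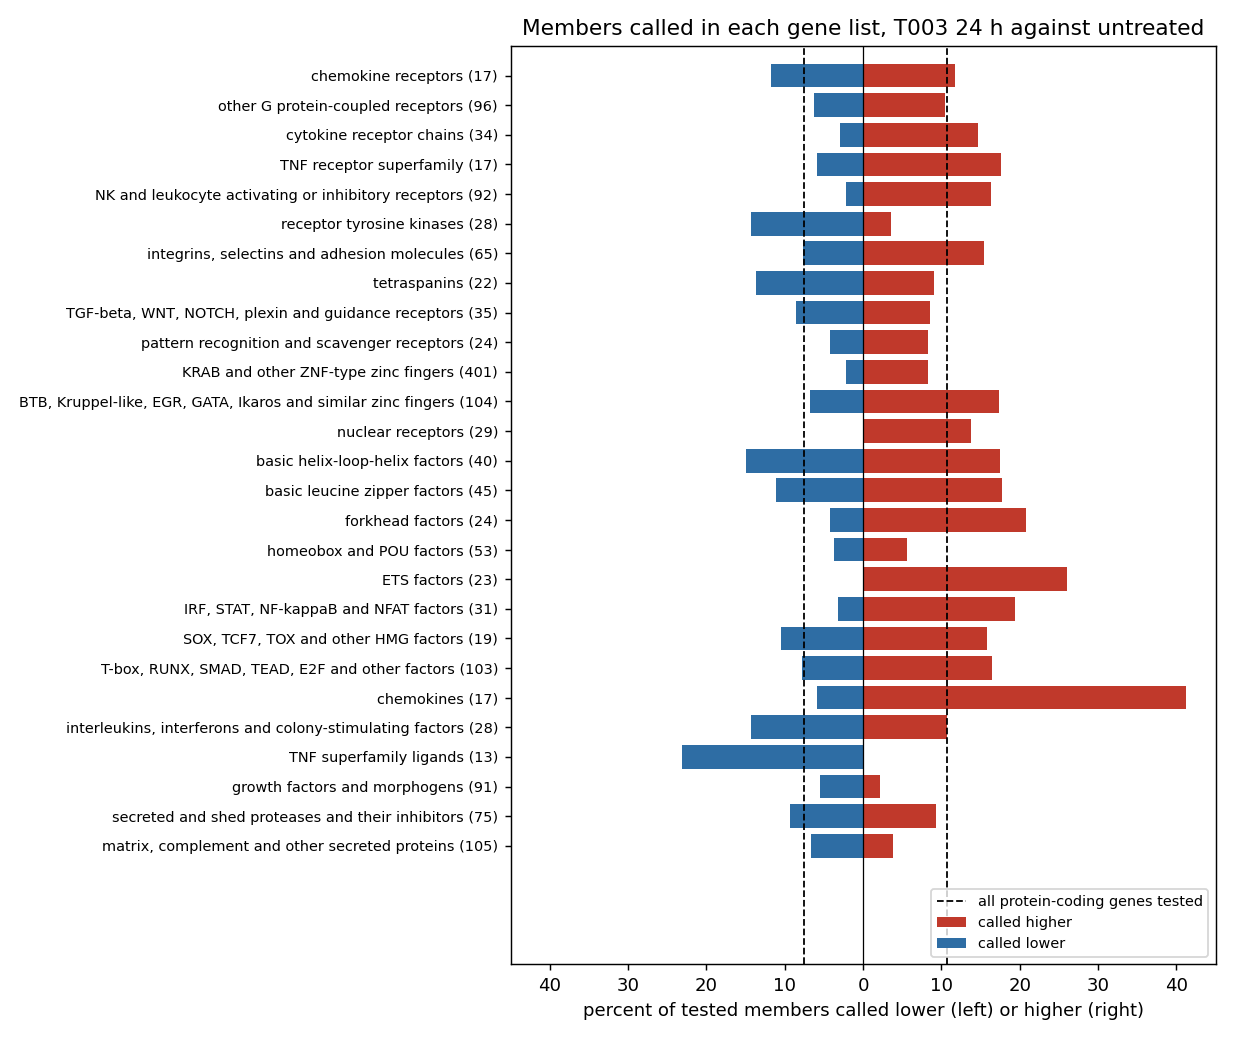
Percent of tested members called lower (left, blue) or higher (right, red) in each list of surface receptors, transcription factors and secreted factors, with the number tested in parentheses. Dashed lines mark all protein-coding genes tested, 7.5% lower and 10.7% higher. Chemokines, a list that holds near copies, reach 41.2% higher.

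Transcription factors were more often called higher than lower, with 72.8% of calls higher, beside 58.8% among called protein-coding genes. Of 871 tested genes (1413 listed), 151 were called (17.3%, beside 18.2% of protein-coding genes), 110 higher and 41 lower, with 46 and 16 stable. The median log2 change over the 871 was 0.03. Without single libraries the count was 73 (untreated replicate 2), 82 (T003 24 h replicate 1) and 97 (T003 24 h replicate 2). The 2 stable calls with the largest log2 change in the class were nevertheless falls, in ZNF683 and TSC22D3.

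ZNF683, which encodes HOBIT, a zinc finger factor of tissue-resident lymphocytes, fell from 3.35 and 3.21 to 0.758 and 0.488 CPM (log2 -2.40, SE 0.195, adjusted p = 3.51e-05). PRDM1, which encodes the related factor BLIMP1, rose from 63.7 and 57.0 to 86.8 and 85.3 CPM (log2 0.51, SE 0.044, adjusted p = 4.93e-05). The pair thus moved in opposite directions, and neither gene had overlapping groups. TSC22D3, known as a glucocorticoid-induced gene, fell from 4.34 and 3.73 to 1.56 and 1.49 CPM, 2.65-fold lower. Among zinc finger factors HIC1, a transcriptional repressor, rose from 11.3 and 9.17 to 17.8 and 18.8 CPM (log2 0.84, SE 0.105, adjusted p = 0.000532), with reads that may be shared with the overlapping gene SMG6. HIVEP3 and ZBTB21 rose 1.48-fold and 1.45-fold. Of 401 ZNF-type genes, 33 were called higher and 9 lower (10.5%), a share below that of all protein-coding genes. This list also holds ZFP36, ZFP36L1 and ZFP36L2, which bind RNA and promote its decay, and which rose by 0.37, 0.39 and 0.46 on the log2 scale (named after their values were seen).

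SKI and SKIL, corepressors that hold back SMAD proteins downstream of TGF-beta, fell together. SKIL was at 28.1 and 33.9 CPM untreated and 17 and 17.7 CPM with T003 (log2 -0.84, SE 0.081, adjusted p = 0.000102). SKI was at 66.2 and 76.4 CPM untreated and 44.7 and 40.3 CPM with T003 (log2 -0.75, SE 0.064, adjusted p = 4.78e-05). Neither had overlapping groups. LDLRAD4, which encodes a membrane protein that limits TGF-beta signalling, fell from 12.4 and 14.7 to 6.59 and 6.51 CPM (2.07-fold lower). SMAD3, outside the naming rule, rose by 0.52 on the log2 scale.

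Basic helix-loop-helix factors moved both ways: 7 of 40 were called higher and 6 lower (32.5% called, beside 18.2% of protein-coding genes). MXI1, a MAX partner that opposes MYC, rose from 12.5 and 11.6 to 20 and 20.1 CPM (log2 0.73, SE 0.078, adjusted p = 0.000188). MYC itself rose from 578 and 533 to 731 and 715 CPM, 1.30-fold, and ID2 and ID3, inhibitors of this family, rose 1.40-fold and 1.56-fold. MSC (musculin) fell from 94.2 and 106 to 61.1 and 60.2 CPM. Other MAX partners, named after their values were seen, went down: MXD4 by a stable -0.53 on the log2 scale, and MXD1 (-0.35) and MXD3 (-0.29) by calls that were not stable.

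Among basic leucine zipper factors, CEBPB and DDIT3 fell and MAFK rose. CEBPB, a factor of inflammatory and stress responses, was at 57.0 and 62.1 CPM untreated and 35.4 and 31.6 CPM with T003 (log2 -0.83, SE 0.074, adjusted p = 6.23e-05). DDIT3, the stress factor CHOP, was at 13.1 and 13.3 CPM untreated and 7.81 and 9.16 CPM with T003, and it overlaps MARS1. BATF was called higher (adjusted p = 0.0338), but left the threshold without T003 24 h replicate 2 (adjusted p = 0.281), without either untreated library (0.105 and 0.197 for replicates 1 and 2) and, by a small margin, without either T003 6 h library (0.0548 and 0.055).

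Of 23 ETS factors 6 were called (26.1%) and of 29 nuclear receptors 4 were called (13.8%), beside 18.2% of protein-coding genes. These 6 and 4 were all higher, with 3 of each list stable. Among called protein-coding genes at large, 58.8% were higher. FLI1 and ERF rose 1.26-fold each, and ETS1, at 518 and 522 CPM untreated and 560 and 570 CPM with T003, rose 1.09-fold. RARA, a retinoic acid receptor, rose from 32.8 and 29.1 to 45.5 and 45.1 CPM, and NR1D1, a clock repressor that overlaps THRA, rose 1.51-fold. Of the interferon regulatory factors, IRF8 rose from 90.9 and 82.7 to 129 and 124.4 CPM (log2 0.54, SE 0.040, adjusted p = 1.91e-05), IRF2 rose 1.22-fold and IRF4 rose 1.14-fold. The list of IRF, STAT, NF-kappaB and NFAT factors had 6 called higher and 1 lower of 31 (22.6% called). NFKBIB, an inhibitor that holds NF-kappaB in the cytoplasm, rose 1.26-fold. POU2F2 rose 1.36-fold and TOX2 1.31-fold, while FOXM1, a driver of mitotic genes, and the chromatin protein HMGB2 fell 1.13-fold each. The homeobox list takes in CERS6, a ceramide synthase, which rose 1.12-fold.

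TBX21 and EOMES, the T-box factors of NK cells, had small changes that were not stable. TBX21, which encodes T-bet, was at 275 and 261 CPM untreated and 307 and 305 CPM with T003 (log2 0.19, adjusted p = 0.0068), a call that ended without T003 24 h replicate 1 (adjusted p = 0.0557) or untreated replicate 2 (0.0945). EOMES was at 171 and 173 CPM untreated and 160 and 159 CPM with T003 (log2 -0.11, adjusted p = 0.0107), and its call ended without T003 24 h replicates 1 or 2 (0.0515 and 0.0871) or untreated replicate 2 (0.11). IKZF2 (adjusted p = 0.489) and TOX (adjusted p = 0.99) were not called, at 214 to 223 CPM and 177 to 181 CPM over the 4 libraries. KLF2, low at 2.30 and 1.52 CPM untreated and 3.42 and 2.67 CPM with T003, missed the threshold (adjusted p = 0.0686), but passed it with DESeq2 (0.023), limma-voom (0.0476), the 1 CPM filter (0.0486), the replicate block (0.0365) and without untreated replicate 1 (0.0279). TCF7 was below 1 CPM in all 4 libraries.

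**Figure D4:**
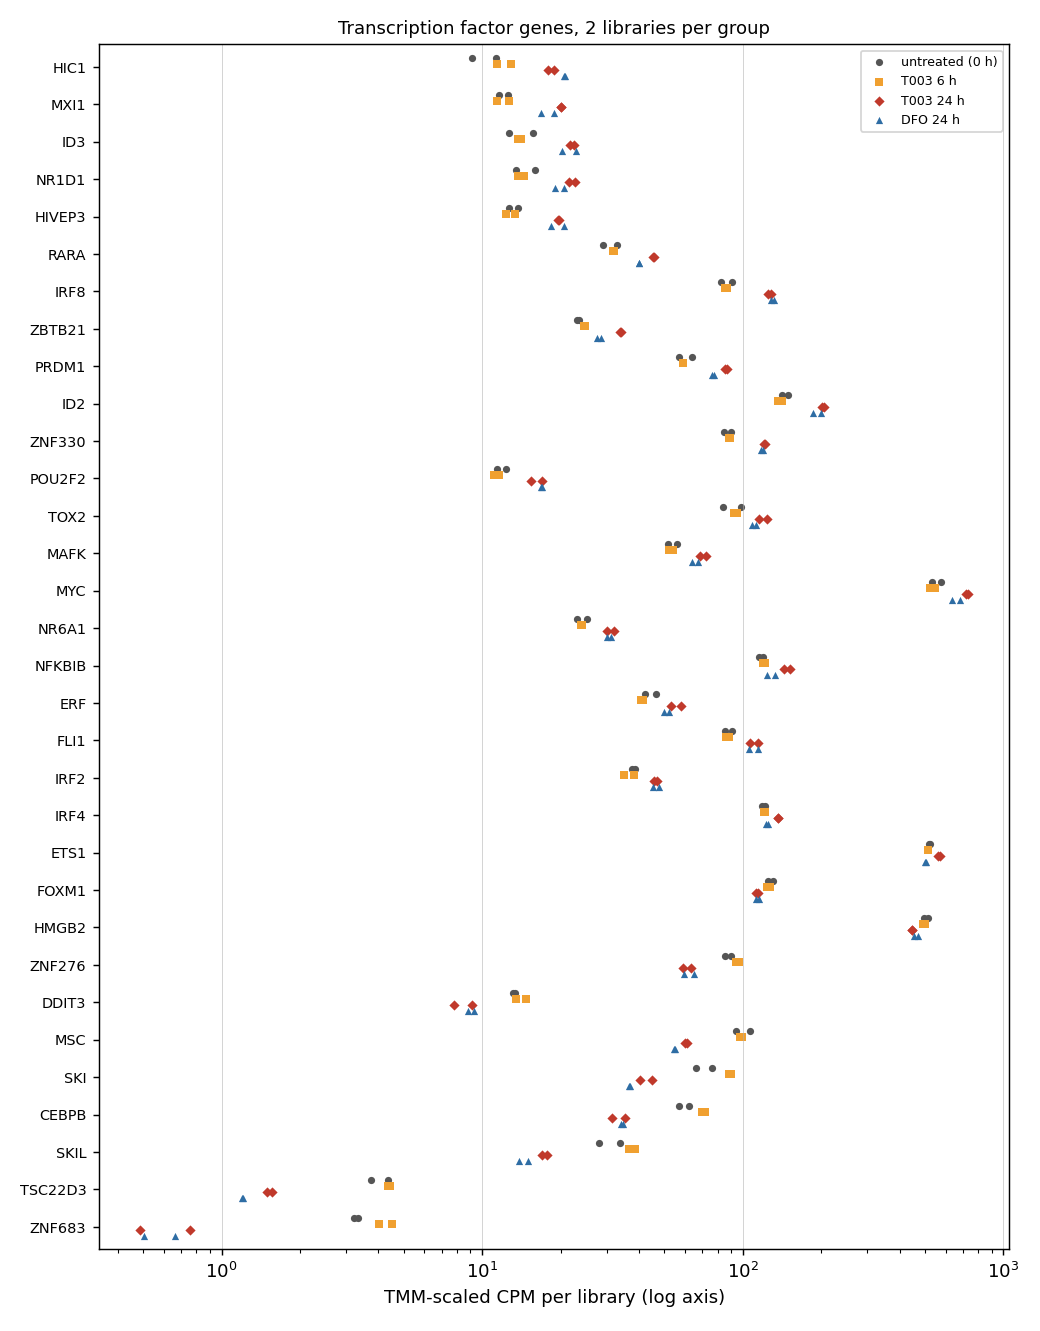
TMM-scaled CPM (log axis) of transcription factor genes in each library, 2 points a group, ordered by the T003 24 h change from HIC1 (top) to ZNF683 (bottom). ZNF683 falls to 0.758 and 0.488 CPM with T003 at 24 h, and IRF8, PRDM1 and ID2 lie to the right of their untreated points.

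Secreted factors were the class with the largest rises after TFRC and also with several falls. Of 329 tested genes (759 listed), 50 were called (15.2%, beside 18.2% of protein-coding genes), 23 higher and 27 lower, with 15 and 7 stable, and the median log2 change over the 329 was -0.08. Without single libraries the count was 25 (untreated replicate 2), 30 (T003 24 h replicate 1) and 29 (T003 24 h replicate 2).

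Among chemokines and their relatives, 7 of 17 tested were called higher and 1 lower (47.1% called, beside 18.2% of protein-coding genes). Of the rises 5 were stable, and the median log2 change over the 17 was 0.11. The 5 hold near copies, CCL3 with CCL3L3 and XCL1 with XCL2, so the share counts genes that may share reads as separate members. The calls that were not stable were CMTM3 (log2 0.11) and CMTM6 (0.12), chemokine-like relatives, and CCL18 (-0.50). CCL3 (chromosome 17, 36088256 to 36090143), which encodes MIP-1 alpha, was at 984 and 767 CPM in untreated cells and 1794 and 1779 CPM with T003 (log2 1.03, SE 0.083, adjusted p = 3.39e-05). Its near copy CCL3L3 was at 31.2 and 17.4 CPM untreated and 59.9 and 60.2 CPM with T003 (log2 1.30, SE 0.187, adjusted p = 0.00118), and reads can be split between the copies. CCL4, which encodes MIP-1 beta and has the near copy CCL4L2, was at 147 and 92.8 CPM untreated and 222 and 217 CPM with T003 (log2 0.87, SE 0.145, adjusted p = 0.00265). The untreated libraries differed from each other in all 3 genes, replicate 1 being the higher, while the T003 24 h libraries lay close together and above both. The near-identical pair XCL1 and XCL2 rose 1.49-fold and 1.35-fold. CCL5 was at 629 and 646 CPM untreated and 666 and 673 CPM with T003 (log2 0.07, adjusted p = 0.062), and passed the threshold with DESeq2 (0.00605), limma-voom (0.0182) and the 1 CPM filter (0.0454).

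IFNG (chromosome 12, 68154768 to 68159740, minus strand), the gene of interferon gamma, was at 8.31 and 6.02 CPM untreated and 16.3 and 15.3 CPM with T003 (log2 1.14, SE 0.125, adjusted p = 0.000227). TNF was below 0.6 CPM in all 4 libraries (adjusted p = 0.521). CSF1, macrophage colony-stimulating factor, fell from 244 and 275 to 142 and 143 CPM (log2 -0.87, SE 0.048, adjusted p = 4.57e-06). IL1RN, the interleukin-1 receptor antagonist, fell from 5.99 and 7.08 to 1.77 and 2.29 CPM (log2 -1.69, SE 0.188, adjusted p = 0.000253). Groups of these 3 called genes did not overlap, which was a condition for naming them. Of 28 interleukins, interferons and colony-stimulating factors, 3 were called higher and 4 lower (25% called, beside 18.2% of protein-coding genes). The 3 called TNF superfamily ligands of 13 (23.1%), named because they are few, were all lower. They were TNFSF10 (log2 -0.35), FASLG (-0.18) and TNFSF14 (-0.16), none of them stable.

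Genes of 5 cytotoxic granule proteins rose by small amounts. GZMB, which encodes granzyme B, rose from 228 and 233 to 296 and 300 CPM (log2 0.37, SE 0.034, adjusted p = 7.83e-05). Perforin (PRF1, log2 0.29), granulysin (GNLY, 0.21), granzyme A (GZMA, 0.18) and serglycin (SRGN, 0.15), outside the naming rule, were stable rises as well, whereas GZMK (-0.12) and CTSW (-0.11) were called lower and not stable. In the same list of 75 proteases and inhibitors, PLAU, the urokinase activator of plasminogen, fell from 21.5 and 22.8 to 14.2 and 14.4 CPM. Together 7 of the 75 were called higher and 7 lower (18.7% called, close to the 18.2% of protein-coding genes).

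IGHM, the immunoglobulin mu heavy chain, rose from 47.3 and 44.1 to 87.8 and 86.0 CPM (log2 0.93, SE 0.040, adjusted p = 1.08e-06). B cell markers summed to 0.870 and 1.67 CPM untreated and 0.626 and 0.408 CPM with T003, so they did not rise with it. QSOX1, a secreted sulfhydryl oxidase, fell from 103 and 126 to 57.7 and 54.5 CPM (2.05-fold lower), and APOL4, an apolipoprotein L family member, fell from 52.3 and 57.4 to 29.0 and 27.7 CPM (1.94-fold lower). FAM3C and METRNL rose 1.2-fold and 1.31-fold, and MANF, a factor retained in and secreted from the endoplasmic reticulum, fell 1.16-fold.

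**Figure D5:**
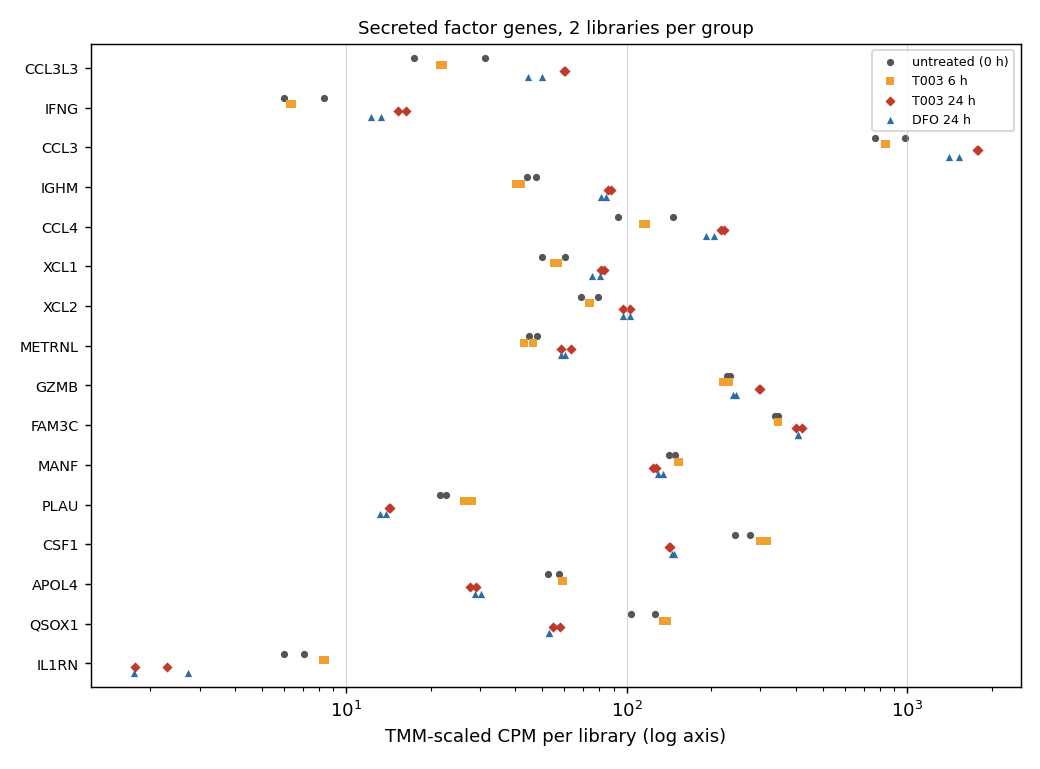
TMM-scaled CPM (log axis) of secreted factor genes in each library, 2 points a group, ordered by the T003 24 h change. CCL3L3, CCL3 and CCL4 show untreated libraries that lie apart from each other and T003 24 h libraries that nearly coincide, and IL1RN falls to 1.77 and 2.29 CPM.

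Signalling and transport genes were called at 21.5% (187 of 871 tested, 14.2% higher and 7.23% lower), beside 18.2% of protein-coding genes. MYO5B, an unconventional myosin that moves recycling endosomes, fell from 8.28 and 11.4 to 1.68 and 2.15 CPM (log2 -2.36, SE 0.168, adjusted p = 1.59e-05). SLC7A11, the cystine importer of glutathione synthesis, fell from 74.0 and 83.2 to 38 and 35.6 CPM (log2 -1.10, SE 0.054, adjusted p = 2.28e-06). SLC48A1, a haem transporter that overlaps HDAC7 and RAPGEF3, fell 1.72-fold from 31.4 and 36.9 to 19.9 and 19.9 CPM. ORAI2, a calcium channel subunit, rose 1.34-fold and KCNA3, the potassium channel of lymphocytes, rose 1.13-fold. All 10 called ion channels, of 111 tested, were higher. That is 9.01% of the list, beside 18.2% of protein-coding genes called and 10.7% called higher.

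Among feedback inhibitors of MAP kinase signalling, DUSP6, a phosphatase of ERK, rose from 16.7 and 13.8 to 23.7 and 25.2 CPM (log2 0.68, SE 0.083, adjusted p = 0.000446), and SPRED1 by 1.43-fold. PIM1, a kinase induced by interleukin-2 signalling, fell from 277 and 290 to 230 and 222 CPM. MAPK8, which encodes JNK1 and overlaps ARHGAP22, fell 1.35-fold. RHOH, PREX1, GNG2 and RGS14, which act around small GTPases and G proteins, rose 1.2-fold to 1.27-fold.

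Other large stable changes fell outside the lists. RIPOR2, an inhibitor of RHOA, rose from 14.1 and 12.6 to 21.7 and 22.9 CPM, IPCEF1 rose from 91.6 and 81.3 to 143.9 and 140 CPM, and TERT, the catalytic subunit of telomerase, rose from 10.0 and 9.37 to 15.5 and 16.3 CPM. IPCEF1 overlaps OPRM1. Lower were the ubiquitin ligase gene ZNRF1 (22.7 and 24.2 to 12.8 and 10.6 CPM), RAB3GAP1 (36.7 and 37.3 to 20.1 and 18.3 CPM) and the ciliary dynein gene DYNC2H1 (7.14 and 6.75 to 3.38 and 3.84 CPM). Absence of overlap between the groups was a condition for naming these 6 genes.

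By change in CPM, the stable falls were led by chaperones. HSPA8, the constitutive HSP70, fell from 4988 and 5192 to 3941 and 4014 CPM (log2 -0.36, SE 0.027, adjusted p = 2.41e-05). HSPA5, the HSP70 of the endoplasmic reticulum, fell from 990 and 1020 to 683 and 695 CPM (log2 -0.54, SE 0.022, adjusted p = 7.35e-07). HSP90AA1, HSP90B1 and CALR fell 1.17-fold, 1.19-fold and 1.25-fold, and CENPF, a mitotic centromere protein, fell 1.57-fold. MTCO1P12 and MTCO2P12, nuclear copies of mitochondrial genes that may share reads with them, fell 1.22-fold each. The rises by change in CPM included CCL3, TFRC and IL2RB. Others among them were the lipid synthesis genes SCD (655 and 661 to 810 and 814 CPM) and FASN (731 and 708 to 880 and 827 CPM), and RBM38, an RNA-binding protein gene, from 260 and 235 to 410 and 385 CPM.

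Timing was read from the 6 h libraries of the same antibody. These libraries lay apart on the second principal component, at -13.1 for replicate 1 and 8.77 for replicate 2. Untreated replicates 1 and 2 were at 10.0 and 8.74 on that component, so T003 6 h replicate 2 lay close to them. Whether this spread limited the number of calls at 6 h was not tested. At 6 h, 6 genes were called against untreated cells (0.0298%, with 0.0248% higher and 0.00497% lower), and of the 129 named genes that were stable calls at 24 h only TFRC was among them. From 6 h to 24 h, 2714 genes were called (13.5%, with 7.55% higher and 5.93% lower), which fell to between 1336 and 1627 without any one of the 4 libraries of that comparison, and all 129 were among the 2714. EPHA1, MYO5B, IL9R, CCR7, QSOX1, CSF1, SKI and SKIL all had 6 h libraries above both untreated libraries before the 24 h fall, without a call at 6 h, and were picked after their values were seen. CSF1, for one, was at 299 and 317 CPM at 6 h, and IL9R at 33.3 and 33.8 CPM. A sign at 6 h opposite to that at 24 h was found for 433 of the 857 stable calls, close to an even split. Only 2 of the 857 were called at 6 h, so nearly all of these signs belong to changes that were not called. The share over all tested genes is not reported here. Among the 129 named genes that were stable calls, the sign was opposite for 81. With DFO for 6 h, EPHA1 (13.1 and 14.2 CPM), MYO5B (13.5 and 12.6 CPM) and IL9R (31.8 and 34.5 CPM) were also above both untreated libraries. The comparisons of 24 h with untreated cells and with 6 h share the T003 24 h libraries, and those of 6 h and 24 h with untreated cells share the untreated ones.

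Between T003 and DFO at 24 h, 270 genes were called (1.34%), 0.884% of all tested genes being higher and 0.457% lower with T003. The count of 270 fell to between 14 and 41 without any one of the 4 libraries of 24 h, to 95 and 96 without T003 6 h replicates 1 and 2, and to 175 without untreated replicate 2. Of the 857 stable calls against untreated cells, 139 were called between the agents, and so were 23 of the 129 named ones, some of which were named for this difference. The 2 comparisons share the T003 24 h libraries. Among the 23, the calls of HMGCS1 and DHCR7, genes of cholesterol synthesis, held without each of the 10 libraries in turn. HMGCS1 was at 299 and 309 CPM untreated, 301 and 310 CPM with DFO and 419 and 427 CPM with T003, a difference between agents of 0.47 (log2, SE 0.027, adjusted p = 6.93e-05). DHCR7 was at 117 and 121 CPM untreated, 122.8 and 128 CPM with DFO and 161 and 158 CPM with T003 (difference 0.35, SE 0.031, adjusted p = 0.00122). For both genes the T003 libraries lay above those of the other groups.

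RGS1 had the largest named difference between the agents, 11.4 and 11.8 CPM with T003 against 6.03 and 6.95 CPM with DFO (difference 0.84, SE 0.118, adjusted p = 0.0108), and that call ended without 4 of the 10 libraries, at an adjusted p of up to 0.102 (without T003 24 h replicate 2). GZMB was at 296 and 300 CPM with T003 and 239 and 246 CPM with DFO (difference 0.29, adjusted p = 0.00546), a call that ended without 3 libraries, at an adjusted p of up to 0.0798 (without T003 24 h replicate 2). AFAP1L2, an adaptor of SRC signalling, was lower with T003, at 30.6 and 31.6 CPM with T003 and 40.1 and 39.6 CPM with DFO, and its call ended without 2 libraries, at an adjusted p of up to 0.0839 (without T003 24 h replicate 1). EPHA1, IL9R, CCR7, MYO5B and IGHM were not called between the agents, with differences of -0.31, 0.01, 0.18, 0.10 and 0.07.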

How the data were processed

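Polyadenylated RNA of NK-92 cells was sequenced in 10 libraries, 5 groups of 2, with groups taken from the labels. Per the labels' protocols, libraries were made with a TruSeq mRNA kit. The authors deposited estimated counts per gene symbol. Per the submitters' processing notes and the series' design text, the tools were fastp 0.21.0 for trimming, HISAT2 2.2.1 for alignment (build hg38) and StringTie 2.1.6 with a RefSeq annotation for counting. The counts were whole, so a rounding step before each fit left them unchanged. Strand handling in counting is not stated in the sources used here, so overlapping genes cannot be told apart.

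Tests used edgeR 4.0.16 in R 4.3.3: the quasi-likelihood F-test with all 10 libraries in 1 model, group as the only term, TMM scaling and filterByExpr (minimum count 10), which gave 5 residual degrees of freedom. P-values were adjusted by Benjamini-Hochberg over the 20125 genes tested, and a gene is called at an adjusted p under 0.05. The SE of a log2 fold change was derived from the F statistic. Levels are TMM-scaled CPM of each library. Fold changes are the fitted ones. Library totals ran from 107117892 to 143575614 counts, and a count of 3 corresponds to 0.0209 to 0.0278 CPM, for counting error alone. Replicates differed by an SD of 0.220 to 0.274 in log2 level among genes of at least 1 CPM, so no pair was a copy. The code was tested on simulated data. It recovered 10 of 56 changes of 1.2-fold, 41 of 73 of 1.5-fold and 42 of 71 of 2-fold, with 10 false calls.

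Alternatives were RLE scaling, omitting the filter, requiring 1 CPM in 2 libraries, limma-voom (limma 3.58.1), the Wald test of DESeq2 1.42.0, the compared groups alone, the replicate number as a block, another fold threshold, and each library left out in turn. Named genes were the 15 largest rises and falls among stable calls at a mean of at least 4 CPM without overlap, up to 3 stable calls in each of 34 lists at 1 CPM or more, the 5 largest in each direction that also differed from DFO, the 10 largest in each direction by change in CPM, and a panel of 30 genes, 143 in all, not all of which are printed or reported here. The members, lists and rule were chosen with earlier results of these data known. Genes named outside the rule are marked in the text. Promoters and coordinates are RefSeq's on GRCh38.p14.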

Additional observations from a re-analysis of the deposited data

Results flagged for a closer look

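For 10 named genes the T003 change at 24 h differed from that at 6 h by the test of 24 h against 6 h itself, and these are listed for a closer look. The difference, 24 h minus 6 h on the log2 scale, was -4.37 for EPHA1, -2.86 for MYO5B, -2.77 for ZNF683, -2.04 for IL1RN and -1.57 for IL9R. It was 1.46 for CCL3L3, 1.32 for IFNG, 1.09 for CCL3, 1.08 for IGHM and 0.98 for TFRC. ZNF683 was at 4.01 and 4.50 CPM at 6 h and 0.758 and 0.488 CPM at 24 h, and IL1RN at 8.29 and 8.41 CPM at 6 h and 1.77 and 2.29 CPM at 24 h. IFNG was at 6.42 and 6.28 CPM at 6 h and 16.3 and 15.3 CPM at 24 h. The 10 are the 5 named genes with the largest difference in each direction, and 13.5% of all tested genes were called between the times. Groups of 2 libraries are too small for a test of single outlying samples.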

How the results depend on the processing

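The count of 2524 genes called in T003 24 h against untreated was 2524 with RLE scaling, 2282 with no filter, 2867 with the 1 CPM filter, 2929 with DESeq2 (which gave no adjusted p for 7804 genes), 2686 with limma-voom and 2271 in the 4 libraries alone. Replicate numbers did not pair the samples: correlations of their deviations lay between -0.0521 and 0.0521, and the replicate block gave 2294 calls. Leaving out single libraries moved counts more: 1084 to 2544 genes called, 663 to 1461 higher, 421 to 1088 lower, 55 to 114 at 2-fold or more, 49 to 80 surface receptors, 73 to 155 transcription factors, 25 to 47 secreted factors, 1336 to 2739 for 24 h against 6 h, and 14 to 229 for T003 against DFO. The count at 2-fold or more (119) was 52 with the 1 CPM filter, 35 with DESeq2 and 268 at a 1.5-fold threshold. The count against DFO (270) was 446 with the 1 CPM filter, 888 with DESeq2, 55 in the compared groups alone and 117 with the replicate block. The causes were not tested, beside fewer samples or genes by construction.

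Over the 143 named genes, 129 of which were chosen for holding in 13 of these fits, 2380 values under an alternative kept direction and side of the threshold, 12 lost the call, 12 gained it and 6 changed sign, all 6 in genes not called. TOX had -0.00567 with the 1 CPM filter, -0.00842 with no filter, -0.0130 without T003 24 h replicate 2, -0.00213 without T003 6 h replicate 1 and -0.00302 without untreated replicate 1, with a range of -0.0130 to 0.0112 when single libraries were left out. TCF7 had 0.16 without T003 24 h replicate 1, the top of a range from -0.76. No stable named gene moved by more than 1.5 times on the log2 scale. Over all 2524 calls, 857 held in those 13 fits.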
